A study of Mus musculus with 24 samples.

Results

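Livers of wild-type mice bearing AKT/YAP1 tumours were compared with livers of wild-type mice without tumour. The comparison took the 12 libraries that the treatment labels assign to these groups, 6 tumour-bearing and 6 control, out of 24 in the series, and all 17216 genes that passed the filter on low counts. In the tumour-bearing group a transposon system had placed the oncogenes AKT and YAP1 in the genome, which induces cholangiocarcinoma, the cancer of bile ducts. The control livers bore no tumour, came from an empty transduction and are labelled healthy. Both groups were wild type at Abcb4 (Mdr2), and age, sex, time after transduction and the promoter that drove the oncogenes are not given in the labels. The tissue is described as tumour-bearing liver, so each library holds RNA of tumour and of surrounding liver together. In such bulk tissue a lower value cannot tell fewer cells of a type from less RNA per cell. The remaining 12 libraries, from Mdr2-/- mice with and without tumour, shared the estimate of the spread and are used at the end for a test of whether the tumour effect differed.

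AKT is a kinase of the insulin and growth factor pathway that promotes growth, glycolysis and lipid synthesis, and it inactivates the FoxO transcription factors. YAP1 is the transcriptional coactivator restrained by the Hippo kinases, and it acts through the TEAD factors on genes of growth, adhesion and matrix. Their joint activation in hepatocytes is used to model cholangiocarcinoma, because the cells take on bile duct features. A normal liver is made up mostly of hepatocytes, which secrete plasma proteins, make bile acids and detoxify, with zones of different metabolism from the portal to the central vein.

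Total counts were 23016702 to 30288385 per tumour-bearing and 20976459 to 28416901 per control library. Levels are given as CPM, counts scaled to library size with TMM factors. They are listed as the lowest, median and highest of the 6 libraries of a group, in that order. Changes are log2 fold changes, tumour-bearing over control, with their standard error from an edgeR quasi-likelihood model, and a gene was called when its Benjamini-Hochberg adjusted p over all genes was below 0.05. Akt1 stood at 58.5, 86 and 162 CPM in tumour-bearing livers and 21.2, 34.8 and 47.5 CPM in controls, without overlap, a change of 1.51 ± 0.26 (edgeR adjusted p = 0.000103). Yap1 stood at 40.2, 48 and 77.5 CPM in tumour-bearing livers and 48.6, 52.9 and 78.4 CPM in controls and was not called (-0.12 ± 0.15, edgeR adjusted p = 0.6). Abcb4, intact in both groups, was not called either (-0.29 ± 0.21, edgeR adjusted p = 0.333). Whether reads from the delivered oncogenes enter the counts of Akt1 and Yap1 was not tested. Tumour-bearing replicate 3 moved farthest, with 96.8% of the genes called up lying above all 6 controls, against 72.5 to 87.7% in the other 5 tumour-bearing libraries. Tumour-bearing replicate 6 stood apart in the other sense, with 33.6% of all tested genes above and 28.0% below every control, against 21.3 to 29.0% and 16.3 to 24.6% in the others. Control replicates 1 to 5, but neither control replicate 6 nor any tumour-bearing library, carry a title number below 2000, and what this number stands for is not given. With that range of title numbers as a covariate 3485 genes were called. In wild type the range nearly coincides with the groups, so it can hardly be told apart from the tumour effect. The covariate was estimated from the Mdr2-/- libraries and the wild-type controls, of which only replicate 6 lies in the upper range.

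Across the 17216 genes tested, 4891 were called (28.4%), 2915 of them up (16.9%) and 1976 down (11.5%). Without tumour-bearing replicate 3 the number was 3521, and without tumour-bearing replicate 6 it was 5008. By at least 2-fold, 1479 genes rose (8.59%) and 428 fell (2.49%), and by at least 8-fold 158 rose and 14 fell. All 6 tumour-bearing libraries lay above all 6 controls for 1251 genes (7.27%) and below them for 600 (3.49%). Rises and falls fell on genes of different abundance: among genes with a mean of 1 to 10 CPM 25.8% rose and 6.44% fell, whereas of the 119 genes at 1000 CPM or more 5.04% rose and 47.9% fell. For the number of genes detected per library, CPM was scaled by total library size, without TMM factors. On this scale tumour-bearing livers had 13639.8 ± 425 genes at 1 CPM or more and controls 12860.0 ± 201 (mean ± SD, n = 6, 2-sided exact permutation test, p = 0.00433). The same scaling raised the median over all genes, as given below, and a difference in gene number under TMM scaling was not tested. The share of counts held by the 1000 highest genes was 69.1 ± 2.01% in tumour-bearing and 73.9 ± 0.888% in control livers (n = 6, exact permutation test, p = 0.00216). The latter is the smallest p that 6 against 6 can give, and adjusted over 4 composition measures both became 0.00866 (exact permutation tests). The split of calls depends on the scaling: scaled by total library size, 5783 genes were called up and 603 down, and the median over all genes moved by 0.298. By limma on log2(TPM + 1) 4528 were called up and 482 down, with a move of 0.255. On log2(TPM + 0.1) 5069 were called up and 498 down, with a move of 0.288. Changes are therefore relative to the TMM scaling, under which the median over all genes was 0.03.

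**Figure D1:**
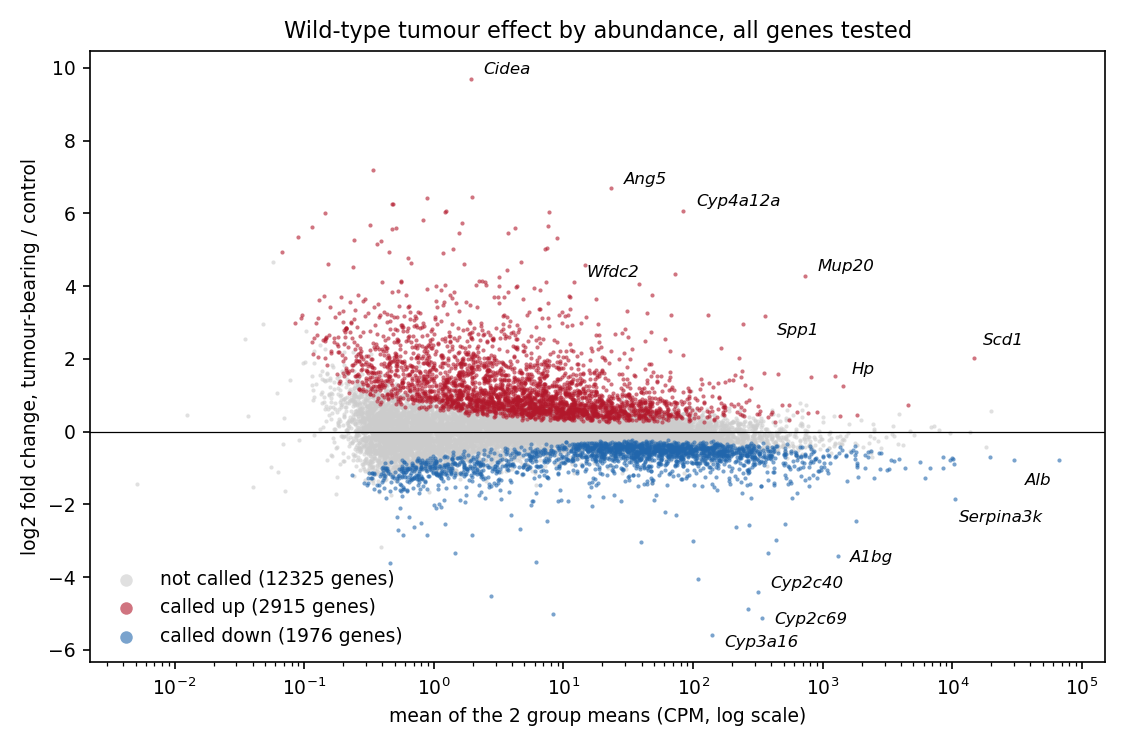
Each point is 1 of the 17216 genes tested, with the mean of the tumour-bearing and control group means on the x axis (CPM, log scale) and the log2 fold change on the y axis; red points were called up, blue points down and grey points not called. Of the genes at 1 to 10 CPM 25.8% rose, and of those at 1000 CPM or more 47.9% fell; for genes at 0 in all controls, such as Cidea, the plotted value depends on the prior count of the model and is no measured fold.

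The abundant transcripts carried the loss. Alb, which encodes albumin, stood at 73506, 79560.1 and 97724 CPM in controls and 34851, 44789 and 65649 CPM in tumour-bearing livers, with every tumour-bearing library below every control (-0.78 ± 0.17, edgeR adjusted p = 0.00159). Serpina3k, a liver-secreted serpin of a family with near-identical copies, stood at 8372, 17201 and 20068 CPM in controls and 2142, 4182 and 7879.8 CPM in tumour-bearing livers (-1.84 ± 0.32, edgeR adjusted p = 0.000158). Apob, the structural protein of secreted lipoproteins, fell without overlap by 0.69 on the log2 scale, and C3, the central complement protein, by 0.88 with 5 of 6 tumour-bearing libraries below all controls. One transcript gained more than any other in absolute terms: Scd1, which introduces the double bond into saturated fatty acids, stood at 16963, 22086 and 32672 CPM in tumour-bearing livers and 4340.3, 5352 and 9450.4 CPM in controls (2.03 ± 0.25, edgeR adjusted p = 2.08e-06). Hpx and Hp, which bind free haem and haemoglobin in plasma, rose by 0.73 ± 0.17 and 1.24 ± 0.17, both without overlap. Other abundant liver transcripts showed no call: Apoe, an apolipoprotein, was at 0.04 ± 0.16 (95% interval -0.279 to 0.362) and Selenop, the selenium carrier of plasma, at -0.00 ± 0.19 (95% interval -0.398 to 0.392).

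The largest rises with no overlap between the groups, at 5 CPM or more in the higher group, lay mostly on genes close to silent in control liver. A ranking by fold change favours such genes, so this is no separate result. Cyp4a12a and Mup20, also among the largest rises, are given with the male-biased genes. Ang5, a member of the angiogenin ribonuclease family with similar copies, stood at 34.2, 42.5 and 71.5 CPM in tumour-bearing livers and 0.0426, 0.477 and 0.733 CPM in controls (6.70 ± 0.52, edgeR adjusted p = 1.43e-09). Its relative Ang4, an antimicrobial ribonuclease of the gut, rose by 5.04 ± 0.36. Sdcbp2, a scaffold protein with PDZ domains, stood at 7.27, 14.9 and 23.2 CPM in tumour-bearing livers and 0.128, 0.20 and 0.43 CPM in controls (6.03 ± 0.45). Spink1, a trypsin inhibitor made by exocrine pancreas, stood at 5.63, 8.16 and 10.5 CPM in tumour-bearing livers and 0, 0.0653 and 0.794 CPM in controls (5.61 ± 0.63), and Pla2g5, a secreted phospholipase, changed by 5.65 ± 0.39. Fam83a, a scaffold protein linked to growth factor signalling, rose by 5.32 ± 0.48, Slco1a6, an organic anion carrier, by 5.03 ± 0.44, and Ptgfr, the receptor of prostaglandin F2 alpha, by 4.59 ± 0.42. Prss35, a serine protease, varied most among them, at 0.476, 4.28 and 21 CPM against 0.0852, 0.112 and 0.383 CPM, with tumour-bearing replicate 4 at the lowest value and still above every control. The control medians of Sdcbp2, Spink1 and Prss35 lay below 0.372 CPM, the level of the filter on low counts. These genes could pass it through other groups.

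**Figure D2:**
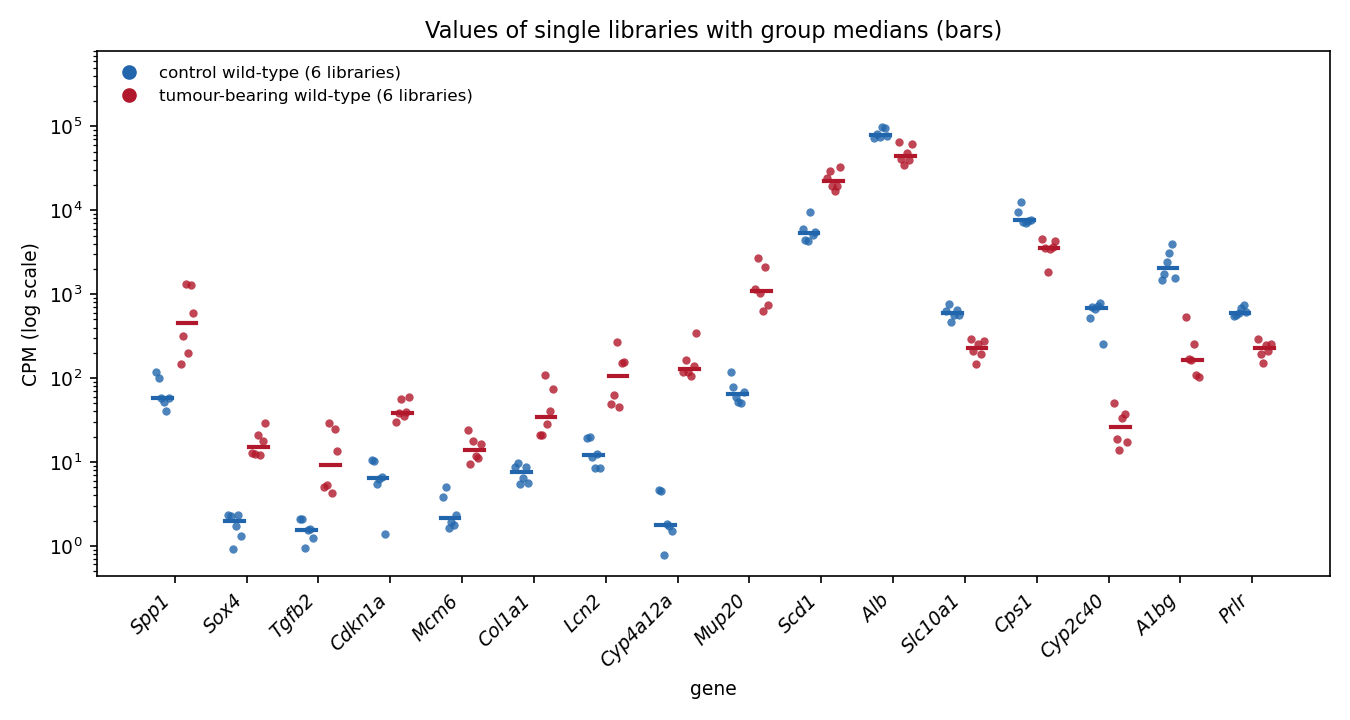
Each dot is 1 library, with CPM on a log y axis and 16 genes on the x axis; blue dots are the 6 controls, red dots the 6 tumour-bearing livers, and bars mark the group medians. The groups do not overlap for any gene shown, and the tumour-bearing values of Spp1, Tgfb2 and Col1a1 spread over a wider range than their controls.

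Bile duct genes rose. Of 17 duct structural genes (keratins, adhesion and secreted proteins of cholangiocytes) 13 were called up, against 16.9% of all genes, and their median log2 fold change was 1.93 against 0.03 over all genes. Of the 17, 4 had a control median below 0.372 CPM, the level of the filter on low counts, so that they could pass it through other groups, and all 4 were called up; of the other 13, 9 were. Over all lists 70 of 897 genes were of this kind, and 43 of them were called up. The summed level of the duct genes was 609 to 2041 CPM in tumour-bearing and 303 to 463 CPM in control libraries. Spp1, which encodes the secreted matrix protein osteopontin, stood at 148, 457 and 1308 CPM in tumour-bearing livers and 40.1, 58.2 and 119 CPM in controls (3.17 ± 0.51, edgeR adjusted p = 5.7e-05). Tumour-bearing replicates 3 (1308 CPM) and 5 (1277 CPM) were the highest, and replicate 1 was the closest to the controls. Wfdc2, a secreted protease inhibitor of ductal epithelia, varied less, at 16.4, 23.2 and 29.8 CPM in tumour-bearing livers and 1.11, 1.27 and 1.64 CPM in controls (4.13 ± 0.32, edgeR adjusted p = 9.92e-10). Krt7, a keratin of bile ducts, stood at 1.17, 3.96 and 10.1 CPM in tumour-bearing livers and 0.454, 0.715 and 1.48 CPM in controls (2.55 ± 0.56, edgeR adjusted p = 0.00133), and tumour-bearing replicate 2 overlapped the controls. Epcam, Cdh1, Cd24a and Prom1 were the members without a call. Of the 13 duct secretion genes 7 rose and 1 fell. Cftr, the chloride channel of the duct, was at 3.70 ± 0.76, Sctr, the secretin receptor, at 2.46 ± 0.78, and Slc5a1, a glucose carrier, at 2.32 ± 0.31. Slc12a2, the basolateral chloride importer, fell (-0.53 ± 0.18). Cftr was called with 4 of 6 tumour-bearing libraries above all controls (0.528, 3.9 and 13.7 CPM in tumour-bearing livers and 0.182, 0.303 and 0.931 CPM in controls). Sctr (tumour-bearing replicate 3) and Slc12a2 (any 1 of 4 libraries) lost the call when that library was left out.

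Among the transcription factors of epithelium, 5 of 9 tested rose (3 without tumour-bearing replicate 3 or 6). Sox4, a factor of duct development, stood at 12.2, 15.2 and 28.8 CPM in tumour-bearing livers and 0.904, 1.97 and 2.35 CPM in controls, without overlap (3.29 ± 0.27, edgeR adjusted p = 3.2e-09). Elf3 (2.64 ± 0.38), Ehf (2.64 ± 0.66), Klf5 (1.62 ± 0.55) and Sox9, the classical factor of bile duct fate (1.08 ± 0.34), were the others. Muc13, a membrane mucin, stood at 0.909, 1.67 and 5.52 CPM in tumour-bearing livers and 0, 0.129 and 0.488 CPM in controls (3.76 ± 0.63), and Tff3, a trefoil peptide, rose by 2.51 ± 0.95. The secreted gel-forming mucins Muc5ac and Muc5b were below the filter, as were 5 more of the 13 mucins and trefoil factors, and 5 of the 6 that passed lay below the level of the filter in controls. Oncofetal genes were mixed, with 3 of 11 up (27.3%, against 16.9% of all genes) and 1 down (9.09%, against 11.5%). Gpc3, the oncofetal surface proteoglycan, stood at 9.35, 10.3 and 18.8 CPM in tumour-bearing livers and 0.681, 1.12 and 1.66 CPM in controls (3.36 ± 0.45, edgeR adjusted p = 5.19e-06). Igf2bp1, which encodes a fetal RNA-binding protein, was at 5.15 ± 0.91 and the imprinted gene Mest at 0.55 ± 0.14. The imprinted gene Peg3 fell (-0.99 ± 0.19), and Afp, the fetal serum protein, was not called (-0.41 ± 0.79, edgeR adjusted p = 0.737). Klf5 (any 1 of 5 libraries), Sox9 (tumour-bearing replicate 3 or 6) and Tff3 (any 1 of 10 libraries) lost the call when that library was left out.

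The pathways of the 2 delivered oncogenes were examined next. Among 21 genes of the PI3K and AKT pathway 3 were called up and 4 down, with a median of -0.10. Scaled by total library size, 5 were called up and 1 down, with a median of 0.18, so that the direction of the list depends on the scaling. Those called down were 2 without tumour-bearing replicate 3 or control replicate 6 and 7 without tumour-bearing replicate 6. Besides Akt1, Ddit4, an inhibitor of mTORC1, stood at 10.8, 16 and 22.5 CPM in tumour-bearing livers and 1.86, 4.07 and 5.25 CPM in controls (2.06 ± 0.28), without overlap. Pik3cg, a catalytic subunit of leukocytes, rose too (0.67 ± 0.16). Irs1, the insulin receptor substrate, fell without overlap (-1.02 ± 0.20, edgeR adjusted p = 0.000501), as did Rictor, a subunit of mTORC2 (-0.62 ± 0.15). Pik3ca, a catalytic subunit of PI3K, was called down too (-0.38 ± 0.12). Akt2 was not called (-0.10 ± 0.12). Of 14 FoxO target genes 1 rose (7.14%) and 3 fell (21.4%), with a median of -0.23. Scaled by total library size, 2 rose, 0 fell and the median was 0.06. Without tumour-bearing replicate 3, 0 fell, and without control replicate 6, 1 fell. The insulin receptor Insr (-0.61 ± 0.20), the stress protein Sesn1 (-0.36 ± 0.12) and Ppargc1a, the coactivator of fasting metabolism (-0.70 ± 0.22), fell, and Sesn3 rose (0.59 ± 0.20). The gluconeogenic genes Pck1 (-0.32 ± 0.30) and G6pc (-0.31 ± 0.49) were not called. Pik3ca (tumour-bearing replicate 3 or control replicate 6), Insr (any 1 of 6 libraries), Sesn1 (tumour-bearing replicate 3 or control replicate 1), Ppargc1a (tumour-bearing replicate 3 or control replicate 6) and Sesn3 (any 1 of 4 libraries) lost the call when that library was left out.

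Of 21 YAP target genes tested 11 rose and 1 fell, with a median of 0.55. With the title number range as a covariate 6 rose. Tgfb2, a TGF beta ligand, stood at 4.29, 9.31 and 29.4 CPM in tumour-bearing livers and 0.947, 1.55 and 2.08 CPM in controls (3.13 ± 0.45, edgeR adjusted p = 1.44e-05). Ankrd1, a nuclear ankyrin repeat protein used as a YAP readout, stood at 0.859, 5.53 and 12.9 CPM in tumour-bearing livers and 0.227, 0.431 and 2.3 CPM in controls (2.76 ± 0.64, edgeR adjusted p = 0.00229), with tumour-bearing replicates 1 and 2 within the range of the controls. Ctgf (2.00 ± 0.36) and Cyr61 (0.70 ± 0.26), the matricellular readouts of the pathway, and Ajuba, an adaptor that binds the LATS kinases (2.22 ± 0.27), were also called up. Nt5e, the ectoenzyme that forms adenosine, fell without overlap (-1.29 ± 0.24). In the Hippo core, Tead4 (1.89 ± 0.30) and Tead2 (1.55 ± 0.41), DNA-binding partners of YAP1, and Wwtr1, which encodes its paralog TAZ (0.79 ± 0.13), rose, as did Amot, an angiomotin that binds YAP1 (0.44 ± 0.15). The kinase Lats1 (-0.36 ± 0.12) and its activator Mob1b (-0.69 ± 0.16) fell. The TEAD motif GGAATG, on either strand, was present in 41.2% of the 17 RefSeq promoters of these target genes (250 bases before to 50 after the start, GRCm38.p6) and in 14.7% of all 32851 promoters. Lists in which at most 1 gene rose reached higher shares, with 4 of 8 promoters of pericentral genes and 5 of 7 of mesothelial and muscle markers. Among all genes called up the share was 14.7%, and among all genes tested 12.8%. The upstream sequence of Ankrd1 is shown because Ankrd1 is the gene of the list with the second largest rise and its window carries the motif 2 times, in capitals (chr19:36119845-36120064, minus strand, GRCm38.p6, read 5′ to 3′ and ending at the base before the start site). Cyr61 (any 1 of 7 libraries), Amot (tumour-bearing replicate 5 or 6 or control replicate 3) and Lats1 (any 1 of 4 libraries) lost the call when that library was left out.

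Ankrd1: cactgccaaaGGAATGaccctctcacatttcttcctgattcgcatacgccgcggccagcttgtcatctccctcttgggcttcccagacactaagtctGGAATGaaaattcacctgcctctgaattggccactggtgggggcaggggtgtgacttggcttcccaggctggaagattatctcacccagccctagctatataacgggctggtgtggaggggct

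Of 19 ligands and receptors of growth factors 8 rose and 1 fell; without tumour-bearing replicate 3 or 5, 5 rose. Pdgfb (2.03 ± 0.40), Pdgfa (1.44 ± 0.18), Pdgfc (0.80 ± 0.27) and Pdgfd (1.20 ± 0.39), ligands of the PDGF receptors on mesenchymal cells, were all called up, as were Btc, a ligand of the EGF receptor (1.87 ± 0.24), and the receptors Erbb4 (1.79 ± 0.23), Erbb2 (0.96 ± 0.25) and Igf1r (0.64 ± 0.24). The hepatocyte growth factor receptor Met was called down (-0.39 ± 0.14), and Egfr was not called (-0.93 ± 0.38, edgeR adjusted p = 0.0671). Of 15 Notch pathway genes, which direct bile duct fate, 4 rose (26.7%, against 16.9% of all genes). Without tumour-bearing replicate 3 there were 2, and without tumour-bearing replicate 6 there was 1. Jag1, the ligand of duct formation, stood at 13.8, 22.5 and 36.8 CPM in tumour-bearing livers and 10.4, 11.2 and 14.3 CPM in controls (1.01 ± 0.22, edgeR adjusted p = 0.00134), with 4 of 6 tumour-bearing libraries above all controls. Notch4, Hey1 and Heyl rose by 0.68 ± 0.21, 0.79 ± 0.27 and 0.82 ± 0.26, and neither Notch1 (0.11 ± 0.19) nor Hes1 (-0.49 ± 0.25) was called. Pdgfc (any 1 of 4 libraries), Pdgfd (tumour-bearing replicate 3 or 5), Igf1r (any 1 of 9 libraries), Met (any 1 of 8 libraries), Notch4 (tumour-bearing replicate 6 or control replicate 1), Hey1 (any 1 of 4 libraries) and Heyl (tumour-bearing replicate 3 or 6) lost the call when that library was left out.

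Genes of DNA replication and mitosis rose nearly as a whole. Of 29 replication genes 26 were called up (median 1.02), 16 of them with all tumour-bearing libraries above all controls, and of 30 mitosis genes 26 (median 1.66), 9 of them without overlap. In controls 3 of the replication and 5 of the mitosis genes had a median below 0.372 CPM, the level of the filter. They could pass it through other groups, and all were called up. Of the other 26 replication genes 23 were called up, and of the other 25 mitosis genes 21. Uhrf1, which carries DNA methylation through replication, stood at 5.19, 5.88 and 14.9 CPM in tumour-bearing livers and 0.775, 1.0 and 1.65 CPM in controls (2.83 ± 0.35, edgeR adjusted p = 1.79e-06). Mcm6, a subunit of the replicative helicase, stood at 9.32, 14 and 23.9 CPM in tumour-bearing livers and 1.64, 2.12 and 4.98 CPM in controls (2.47 ± 0.29), and Mcm5 (2.09 ± 0.25), Gins2 (2.57 ± 0.35) and Orc1 (1.77 ± 0.33), further parts of the replication machinery, rose without overlap too. Ttk, the kinase of the spindle checkpoint, stood at 0.928, 1.62 and 3.6 CPM in tumour-bearing livers and 0.11, 0.177 and 0.318 CPM in controls (3.15 ± 0.40, edgeR adjusted p = 2.35e-06). Cdk1, the mitotic kinase, was at 3.23, 3.85 and 10.1 CPM in tumour-bearing livers and 0.947, 1.23 and 1.86 CPM in controls (1.91 ± 0.30), and Mki67, the proliferation antigen, at 6.67, 14 and 24.3 CPM in tumour-bearing livers and 5.0, 6.3 and 7.28 CPM in controls (1.20 ± 0.30). Levels of the mitosis genes were highest in tumour-bearing replicate 3, where their median lay 2.53 above the control mean on the log2 scale, and lowest in replicate 4 (0.64). Tk1 (-0.18 ± 0.27), Mcm10 (0.26 ± 0.26) and Pola1 (0.26 ± 0.18) in replication and Kif20a (1.06 ± 0.42), Aurka (0.59 ± 0.29), Ube2c (-0.03 ± 0.32) and Nusap1 (-0.29 ± 0.34) in mitosis were the members without a call.

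Promoters of 4 of these genes are shown for the motifs they carry. Searched on both strands in 300 bases around the RefSeq start, the CCAAT box was present in 77.8% of the 27 promoters of mitosis genes, 70.4% of the 27 of replication genes and 37.4% of all promoters. It was as frequent in some lists with no more rises than falls, such as cholesterol synthesis genes (12 of 14) and genes of endoplasmic reticulum stress (14 of 20), and the share over all genes called up was 35.5%. The cell cycle homology element TTTGAA was present in 74.1%, 14.8% and 17.9%, and the E2F motif (TTTGGCGC or TTTCCCGC) in 0%, 33.3% and 1.56%. In promoters of all genes tested the shares were 37.3% for CCAAT, 12.7% for TTTGAA and 2.58% for E2F. Of the genes called up as a whole 35.5% and of those called down 37.6% had a CCAAT box. The matches are letters in the sequence and do not show binding. Below are the 150 bases before the start of Ttk (chr9:83834539-83834688, plus strand), 1 of the 2 promoters of Uhrf1 (chr17:56304163-56304312, plus strand), Mcm6 (chr1:128359706-128359855, minus strand) and Cdk1 (chr10:69352913-69353062, minus strand), all GRCm38.p6, with CCAAT boxes and matches of the other motifs, on either strand, in capitals. Mcm6 and Cdk1 were chosen after the motifs were seen.

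Ttk: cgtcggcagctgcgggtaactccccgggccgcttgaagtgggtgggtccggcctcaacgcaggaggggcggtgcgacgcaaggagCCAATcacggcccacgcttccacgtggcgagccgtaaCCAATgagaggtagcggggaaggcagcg
Uhrf1: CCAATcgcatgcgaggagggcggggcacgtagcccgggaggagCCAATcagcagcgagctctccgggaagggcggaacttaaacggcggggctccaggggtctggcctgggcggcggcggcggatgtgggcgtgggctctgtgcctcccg
Mcm6: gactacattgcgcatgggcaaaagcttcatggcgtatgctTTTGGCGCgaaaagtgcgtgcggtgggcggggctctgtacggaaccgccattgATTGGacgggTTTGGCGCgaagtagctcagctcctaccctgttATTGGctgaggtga
Cdk1: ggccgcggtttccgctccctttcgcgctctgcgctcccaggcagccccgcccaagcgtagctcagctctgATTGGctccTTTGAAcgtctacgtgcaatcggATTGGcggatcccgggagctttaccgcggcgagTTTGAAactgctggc

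Control of the cell cycle rose on both sides. Of 22 G1 to S regulators 8 were called up, led by the inhibitors Cdkn1a, Cdkn2a and Cdkn2b. In controls 2 of the 22 had a median below the level of the filter, and both were called up. Of the other 20, 6 were. Cdkn1a, which encodes p21, stood at 29.5, 38.7 and 59 CPM in tumour-bearing livers and 1.36, 6.42 and 10.5 CPM in controls (2.68 ± 0.38, edgeR adjusted p = 1.42e-05). Cdkn2a (2.60 ± 0.78) and Cdkn2b (2.28 ± 0.48), neighbouring inhibitors of the cyclin D kinases, rose too. Cdkn2a was at 0 CPM in all controls but replicate 4 (0.213 CPM), so its fold change rests on a control level near 0. E2f1, the activating E2F factor, stood at 7.25, 8.43 and 10.4 CPM in tumour-bearing livers and 2.0, 2.29 and 2.77 CPM in controls (1.87 ± 0.15, edgeR adjusted p = 1.71e-09). Cyclin E1 rose (Ccne1, 1.49 ± 0.27), cyclin D1 was not called (Ccnd1, 0.13 ± 0.21), and E2f8, a repressing E2F factor, fell without overlap (-1.13 ± 0.21). Of 16 p53 target genes 11 rose (median 0.91). Eda2r, a death domain receptor, stood at 15.8, 19.8 and 29.5 CPM in tumour-bearing livers and 1.53, 2.53 and 4.36 CPM in controls (2.93 ± 0.28, edgeR adjusted p = 2.68e-08). Phlda3, an AKT antagonist, was at 2.64 ± 0.22, and Bax, the pore-forming inducer of apoptosis, at 1.41 ± 0.19. Mdm2, the negative regulator of p53, was not called (0.15 ± 0.12).

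Matrix genes rose widely. Of 28 structural matrix genes 25 were called up (median 1.36), 17 with no overlap between the groups. Col1a1, a chain of type I collagen, stood at 20.7, 34.5 and 108 CPM in tumour-bearing livers and 5.42, 7.53 and 9.64 CPM in controls (2.72 ± 0.37, edgeR adjusted p = 8.24e-06), and Col3a1 (2.30 ± 0.26), Col5a2 (2.41 ± 0.32), the basement membrane collagen Col4a1 (1.41 ± 0.23) and tenascin C (Tnc, 2.35 ± 0.30) moved with it. Fn1, plasma and tissue fibronectin, was not called (-0.70 ± 0.27, edgeR adjusted p = 0.0551). The summed level of the 28 genes, Fn1 included, was 3033 to 6728 CPM in tumour-bearing and 3129 to 6260.5 CPM in control libraries, with overlap. Of 22 remodelling genes 16 rose and 1 fell. Timp1, an inhibitor of matrix proteases, stood at 1.69, 2.18 and 10.9 CPM in tumour-bearing livers and 0.129, 0.312 and 0.603 CPM in controls (3.42 ± 0.50). Lox, which crosslinks collagen, rose by 2.90 ± 0.50. Mmp12 (2.57 ± 0.32) and Mmp13 (2.5 ± 0.36), secreted proteases, were called up, Mmp9 and Mmp7 were not (0.22 ± 0.30 and -0.43 ± 0.63), and Mmp19 fell (-0.63 ± 0.20). Mmp19 lost its call without tumour-bearing replicate 3 or control replicate 5.

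Of 18 markers of stellate cells and fibroblasts tested, 6 were called up, with a median of 0.26. Without tumour-bearing replicate 3 there were 3, and with the title number range as a covariate 2. Contractile genes led them. Tagln, an actin-binding protein, stood at 1.94, 2.86 and 11 CPM in tumour-bearing livers and 0.959, 1.13 and 1.62 CPM in controls (1.98 ± 0.40). Acta2, smooth muscle actin, was at 0.996, 4.05 and 19 CPM in tumour-bearing livers and 0.772, 1.68 and 3.49 CPM in controls (1.76 ± 0.51, edgeR adjusted p = 0.0111), where 3 of 6 tumour-bearing libraries overlapped the controls. Des (0.13 ± 0.34), Lrat (-0.14 ± 0.21), the enzyme of vitamin A storage in quiescent stellate cells, and Reln (-0.32 ± 0.17) were not called, and the summed level of the list was 603 to 748 CPM in tumour-bearing and 613 to 698 CPM in control libraries. In the TGF beta pathway 7 of 17 rose, among them the ligands Tgfb3 (1.89 ± 0.37), Tgfb1 (0.68 ± 0.13) and Inhbb (1.74 ± 0.29) and the activating integrin subunit Itgb6 (1.70 ± 0.49), while the signal transducers Smad2, Smad3 and Smad4 were not called (0.12 ± 0.10, 0.08 ± 0.27 and -0.26 ± 0.11). Acta2 lost its call without tumour-bearing replicate 3.

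Markers of several leukocyte types were examined. Of 17 recruited macrophage markers 11 were called up (median 1.09), with a summed level of 315 to 609 CPM in tumour-bearing and 219 to 317 CPM in control libraries. Itgax, the integrin CD11c, stood at 1.72, 3.39 and 10.2 CPM in tumour-bearing livers and 0.741, 1.04 and 1.37 CPM in controls (2.12 ± 0.32, edgeR adjusted p = 2.96e-05). Ccr2, the receptor of inflammatory monocytes, rose by 1.97 ± 0.28, and Trem2, a receptor of lipid-associated macrophages, by 1.36 ± 0.32. Among the 8 markers of Kupffer cells, the resident macrophages, 3 rose and 1 fell, each by less than 2-fold. These were Cd5l (0.64 ± 0.19), Folr2 (0.57 ± 0.20) and Vsig4 (0.43 ± 0.15) against Slc40a1, the iron exporter (-0.52 ± 0.16), with Clec4f not called (0.26 ± 0.23). Leaving out any 1 of 6 libraries left 1 of these 3 rises. The summed level of Kupffer markers was 682 to 1007 CPM in tumour-bearing and 817 to 1113 CPM in control libraries. None of 20 T and NK cell markers was called by edgeR, with 1 at an unadjusted p under 0.05, 0 by DESeq2 and by limma voom, 2 with scaling by total library size, 1 on log2(TPM + 1) and 3 on log2(TPM + 0.1). Their summed level was 17.8 to 28 CPM in tumour-bearing and 16.8 to 26.3 CPM in control libraries. None of 6 neutrophil markers above the filter was called by edgeR, with 2 at an unadjusted p under 0.05 and 0 by DESeq2 and by limma voom. Scaled by total library size and on both log2 TPM scales 3 of the 6 were called up, and 1 was with the covariate or without tumour-bearing replicate 1 or 2. Ly6g, Camp, Ltf, Mpo and Elane were below the filter. Folr2 (any 1 of 7 libraries), Vsig4 (any 1 of 6 libraries) and Slc40a1 (tumour-bearing replicate 3) lost the call when that library was left out.

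Of 13 B and plasma cell markers 5 were called up by edgeR, 3 without tumour-bearing replicate 3, and 1 up and 1 down by limma voom. Ighg1, a constant gene of IgG, stood at 0.584, 6.5 and 25.4 CPM in tumour-bearing livers and 0.273, 1.01 and 1.77 CPM in controls (3.28 ± 0.67, edgeR adjusted p = 0.000803). Ighg2b (2.94 ± 0.56), Ighg2c (2.35 ± 0.70) and Jchain, the joining chain of secreted antibodies (1.41 ± 0.40), moved with it, as did Igkc, the kappa light chain (1.04 ± 0.36). The IgA gene Igha (1.10 ± 0.44), the IgM gene Ighm (-0.48 ± 0.21) and the B cell surface gene Ms4a1 (-0.22 ± 0.27) were not called. Immunoglobulin genes resemble each other, so that their counts are uncertain. Among chemokines and cytokines 14 of 24 tested rose (median 1.15), and 9 without tumour-bearing replicate 3. Of the 24, 8 lay below the level of the filter in controls, 4 of them among the 14. Ccl2, the attractant of monocytes, stood at 1.99, 4.27 and 13.8 CPM in tumour-bearing livers and 0.50, 0.693 and 1.11 CPM in controls (2.96 ± 0.50, edgeR adjusted p = 8.74e-05). Ccl7, its neighbour, rose by 3.21 ± 0.56, Ccl20, the ligand of CCR6, by 3.42 ± 0.78, and Lif, a cytokine of the IL-6 family, by 2.83 ± 0.53. Cxcl12 (-0.20 ± 0.13) and Cxcl9 (0.58 ± 0.41) were not called, and Il6 was below the filter. Of 22 interferon-stimulated genes 16 rose (median 1.0). Ifi27l2a stood at 2.14, 9.44 and 23.2 CPM in tumour-bearing livers and 1.14, 1.78 and 3.72 CPM in controls (2.42 ± 0.43). Mx1 (2.02 ± 0.38), Ifit1 (1.76 ± 0.28) and Irf7 (1.32 ± 0.17) were called, whereas Rsad2 (-0.63 ± 0.28) was not. Siglech, a marker of plasmacytoid dendritic cells, which make interferon, stood at 1.03, 1.7 and 2.99 CPM in tumour-bearing livers and 0.383, 0.627 and 1.04 CPM in controls (1.40 ± 0.27). Of 14 genes of dendritic cells and antigen presentation by MHC class II 5 rose, among them H2-Ab1 (0.68 ± 0.22) and H2-Eb1 (0.67 ± 0.25), and Cd74, the invariant chain, was at 0.61 ± 0.24. The 5 became 1 without tumour-bearing replicate 3, 1 with the covariate and 1 by limma voom. Jchain (tumour-bearing replicate 3), Igkc (any 1 of 5 libraries), H2-Ab1 (tumour-bearing replicate 3) and H2-Eb1 (any 1 of 9 libraries) lost the call when that library was left out.

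Of 17 sinusoidal endothelial markers 2 rose (11.8%, against 16.9% of all genes), Lyve1 (0.96 ± 0.22) and Flt4 (0.59 ± 0.15), both also genes of lymphatic endothelium. The scavenger receptors Stab1 (0.12 ± 0.13) and Stab2 (0.13 ± 0.12) and the central vein Wnt ligands Wnt2 (-0.14 ± 0.20) and Wnt9b (0.07 ± 0.23) were not called. Of 12 vascular genes 3 rose (25%). Scaled by total library size, 8 sinusoidal and 6 vascular genes were called up. Esm1, a proteoglycan of endothelial tip cells, stood at 0.693, 1.74 and 4.65 CPM in tumour-bearing livers and 0.0436, 0.10 and 0.298 CPM in controls (3.90 ± 0.59, edgeR adjusted p = 2.51e-05). Cd34 rose by 1.40 ± 0.24 and Emcn by 0.67 ± 0.18, and Vegfa was not called (-0.14 ± 0.14).

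**Figure D3:**
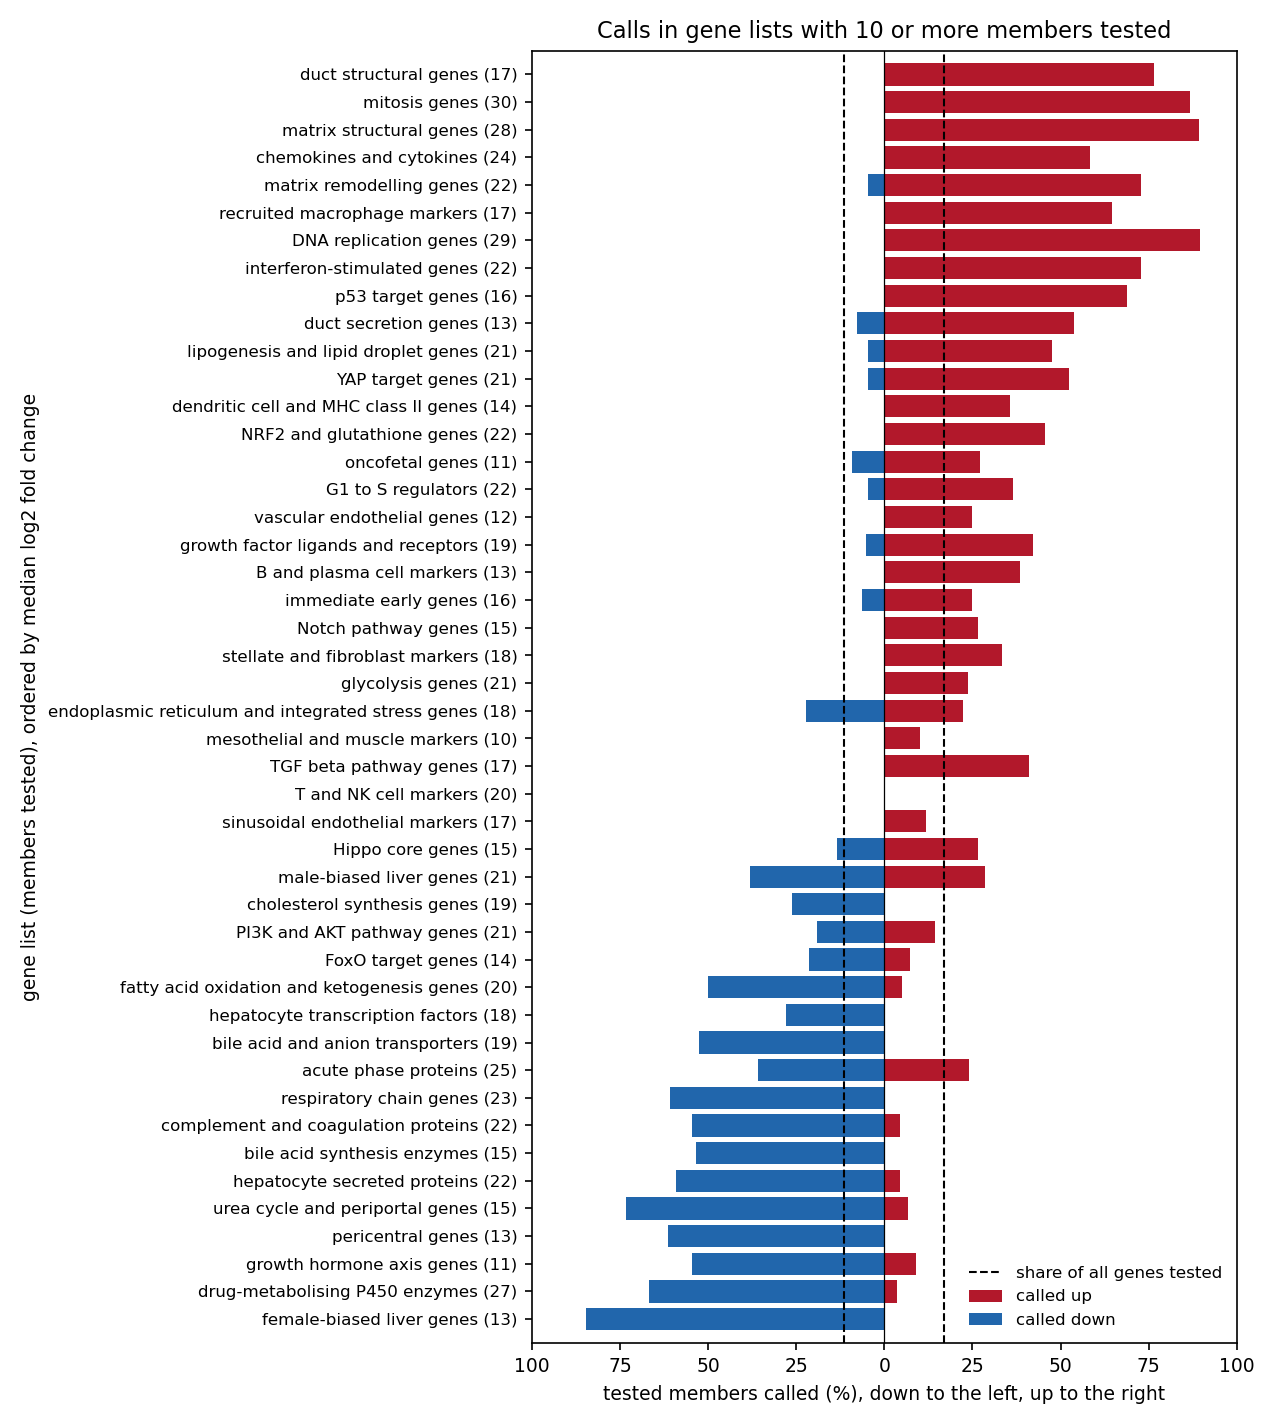
Bars give the share of tested members of each gene list that were called down (blue, left) or up (red, right), for lists with 10 or more members tested (number in parentheses), ordered by median log2 fold change. Dashed lines mark the shares over all genes, 11.5% down and 16.9% up; the structural matrix (89.3%), replication (89.7%) and mitosis (86.7%) lists have the highest shares up and female-biased liver genes (84.6%) the highest share down.

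Hepatocyte products fell. Of 22 secreted proteins 13 were called down, against 11.5% of all genes, and 1 up (median -0.54), and their summed level was 84898 to 141881 CPM in tumour-bearing and 160422 to 193192 CPM in control libraries. Those called down were 9 with scaling by total library size, 5 on both log2 TPM scales and 4 with the title number range as a covariate. Igfals, which stabilises IGF1 in plasma, stood at 88.5, 149 and 209.7 CPM in controls and 35.9, 54.1 and 81 CPM in tumour-bearing livers (-1.46 ± 0.26, edgeR adjusted p = 0.000177). Igf1 itself fell by 1.13 on the log2 scale. Ttr (-0.06 ± 0.19), Rbp4 (-0.12 ± 0.18) and Apoa1 (0.13 ± 0.18), carriers of thyroid hormone, retinol and lipid, were not called. Apoa4, an apolipoprotein of fat transport, stood at 816, 1141 and 1575 CPM in tumour-bearing livers and 285, 459 and 508 CPM in controls (1.5 ± 0.26). Of 22 complement and coagulation proteins 12 fell (6 with scaling by total library size and 6 with the covariate), led by the clotting factor F11 (-1.32 ± 0.21) and followed by F5 (-0.85 ± 0.20) and F7 (-0.78 ± 0.13), while C6 rose (1.09 ± 0.25). Of 25 acute phase proteins 6 rose and 9 fell, or 8 and 5 when scaled by total library size. Lcn2, an iron-siderophore carrier, stood at 45.5, 106 and 272 CPM in tumour-bearing livers and 8.45, 12 and 19.8 CPM in controls (3.20 ± 0.44, edgeR adjusted p = 7.06e-06). Saa1 (2.03 ± 0.39) and Saa2 (2.66 ± 0.39), serum amyloids with near-identical copies, rose as well. The fibrinogen chains Fga (-1.05 ± 0.19), Fgb (-0.77 ± 0.16) and Fgg (-1.03 ± 0.16) fell together, as did Serpina3m (-1.44 ± 0.22) and the iron hormone Hamp (-0.70 ± 0.24). Hamp lost its call when any 1 of 5 libraries was left out.

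Of 18 transcription factors of hepatocytes 5 fell (27.8%, against 11.5% of all genes), with a median of -0.35. Without tumour-bearing replicate 2 or 3 or control replicate 2 or 6, 3 fell. Hnf4a (-0.13 ± 0.25, 95% interval -0.643 to 0.386) and Cebpa (-0.13 ± 0.19), which specify the hepatocyte, were not called. Foxa2 and Foxa1, pioneer factors of liver, were at -1.07 ± 0.22 and -0.47 ± 0.17, Nr5a2, a regulator of bile acid genes, at -0.72 ± 0.12, and Nr1i3, the xenobiotic receptor CAR, at -0.56 ± 0.21. Foxa1 (any 1 of 8 libraries) and Nr1i3 (any 1 of 8 libraries) lost the call when that library was left out.

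Bile acid genes fell on the side of synthesis and of transport. Of 15 synthesis enzymes 8 were called down (median -0.53), 6 with scaling by total library size and 3 with the covariate. Cyp7b1, the oxysterol hydroxylase of the alternative pathway, stood at 51.2, 87.3 and 186 CPM in controls and 14.3, 21.8 and 28.1 CPM in tumour-bearing livers (-2.20 ± 0.24, edgeR adjusted p = 2.27e-07). Cyp2c70, which makes the muricholic acids of the mouse, stood at 1043, 1137 and 1655 CPM in controls and 318, 564 and 739 CPM in tumour-bearing livers (-1.28 ± 0.23). Cyp27a1, the first enzyme of the alternative pathway, was at -0.86 ± 0.19, and Slc27a5, which activates bile acids for conjugation, at -0.97 ± 0.18. Cyp7a1, the rate-limiting enzyme of the classical pathway, was not called (-0.72 ± 0.48, edgeR adjusted p = 0.272), and Cyp8b1, the sterol 12-hydroxylase, was at -0.00 ± 0.39. Of 19 transporters above the filter 10 fell, 6 with scaling by total library size and 5 with the covariate. Slc10a1, the sodium-dependent importer of bile acids, stood at 469.7, 603 and 773 CPM in controls and 148, 231 and 291 CPM in tumour-bearing livers (-1.41 ± 0.20, edgeR adjusted p = 1.54e-05). Abcb11, the canalicular export pump, was at 419.9, 894 and 1003 CPM in controls and 186, 331 and 366 CPM in tumour-bearing livers (-1.36 ± 0.22, edgeR adjusted p = 5.94e-05), and neither gene showed overlap. Slco1b2, an importer of organic anions, was at -1.01 ± 0.20, and the exporters of the basolateral side, Abcc3 (-0.27 ± 0.22) and Abcc4 (-0.28 ± 0.22), were not called.

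The largest falls lay among cytochrome P450 and other enzymes that female mouse liver makes at a higher level than male liver. Of 27 drug-metabolising P450 genes 18 fell and 1 rose (median -0.98), and of 13 female-biased liver genes 11 fell (median -1.82). The female-biased list does not hold every such gene. Of those counted with the P450 genes instead, Cyp2c40 fell, whereas Cyp2a4 and Cyp2b13 were not called. Cyp2c69 stood at 205, 770.4 and 829.8 CPM in controls and 7.8, 16.2 and 38 CPM in tumour-bearing livers (-5.11 ± 0.45, edgeR adjusted p = 7.98e-09). Its relative Cyp2c40 was at 256, 684 and 776 CPM in controls and 13.7, 25.9 and 50.6 CPM in tumour-bearing livers (-4.42 ± 0.33, edgeR adjusted p = 6.78e-10). For both genes control replicate 6, the control whose title number lies in the range of the tumour-bearing libraries, was the lowest control (205 and 256 CPM) and still lay above every tumour-bearing library. For Acot3, Hao2 and Cux2 that library was not the lowest control. The labels give no sex, and in raw counts Xist, the RNA of the inactive X chromosome, stood at 15440 to 64734 in tumour-bearing and 23717 to 51171 in control libraries, and the Y-linked gene Ddx3y at 0 to 9 and 1 to 8. A1bg, a plasma protein, stood at 1489, 2077 and 4009 CPM in controls and 102, 166 and 537 CPM in tumour-bearing livers (-3.42 ± 0.53, edgeR adjusted p = 3.95e-05). Sult3a1, a sulfotransferase, was at 2273, 2976 and 4691 CPM in controls and 82.6, 325 and 1308 CPM in tumour-bearing livers (-2.45 ± 0.52). Cyp3a16 (-5.58 ± 1.09) and Cyp3a44 (-4.88 ± 0.77) fell with overlap. The controls of Cyp3a16 were at 6.54, 177 and 697 CPM, with control replicate 6 the lowest and within the range of the tumour-bearing libraries. Without control replicate 6, 10 of the 13 female-biased genes were called down, and with the title number range as a covariate 8. Further P450 genes called down were the pericentral enzymes Cyp1a2 (-1.32 ± 0.26) and Cyp2e1 (-0.99 ± 0.20). The fatty acid hydroxylase Cyp4a14 (-2.53 ± 0.40) and the steroid hydroxylase Cyp17a1 (-2.46 ± 0.51) were called down too. Cyp2c, Cyp3a, Cyp4a and Sult3a genes have near-identical copies, between which the counting may have divided reads.

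Upstream sequences of Cyp2c69, Cyp2c40 and Cyp2c70 are shown because each carries the HNF4 motif CAAAGTCCA, here in capitals. It was found on either strand in 0.475% of all promoters, in 3 of 14 promoters of female-biased genes, in 3 of 27 of P450 genes and in 2 of 9 of bile acid synthesis enzymes. Among all genes called down the share was 0.844%, and among all genes tested 0.549%. The bile acid list also holds Cyp8b1, which has the motif and was not called. All other carriers in these lists were Cyp2c or Cyp3a genes, which are related in sequence. Aligned on the motif, 90 of 90 bases were equal between Cyp2c69 and Cyp2c40, whose annotated starts differ by 30 bases. Each is given for 120 bases before the start, on the minus strand of chr19:39886770-39886889, chr19:39812815-39812934 and chr19:40187287-40187406 (GRCm38.p6). Cyp2c69 and Cyp2c40 were chosen after the motifs were seen.

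Cyp2c69: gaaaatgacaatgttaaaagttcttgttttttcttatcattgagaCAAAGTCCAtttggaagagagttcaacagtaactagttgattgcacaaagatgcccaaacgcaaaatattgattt
Cyp2c40: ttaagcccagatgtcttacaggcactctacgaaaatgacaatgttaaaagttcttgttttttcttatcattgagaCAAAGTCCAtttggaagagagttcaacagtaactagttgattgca
Cyp2c70: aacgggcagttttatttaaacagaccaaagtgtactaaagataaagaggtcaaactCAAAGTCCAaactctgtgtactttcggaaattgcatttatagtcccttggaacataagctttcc

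Genes that male mouse liver makes at a higher level did not move in 1 direction. This list was drawn up after Cyp4a12a and Mup20 had been seen among the largest rises and is a description. Of its 21 members above the filter 6 rose and 8 fell, or 8 and 7 when scaled by total library size. Cyp4a12a, an arachidonic acid hydroxylase, stood at 106, 128 and 349 CPM in tumour-bearing livers and 0.775, 1.79 and 4.58 CPM in controls (6.08 ± 0.80, edgeR adjusted p = 8.07e-06). Mup20, the pheromone carrier darcin, was at 634, 1096 and 2669 CPM in tumour-bearing livers and 50.1, 64.3 and 119 CPM in controls (4.29 ± 0.54, edgeR adjusted p = 2.27e-06), and neither showed overlap. Against them Hsd3b5, a steroid dehydrogenase (-3.35 ± 0.44), Mup7 (-2.68 ± 0.59), Elovl3, a fatty acid elongase (-1.67 ± 0.34), and Slco1a1, an anion importer (-0.91 ± 0.22), fell. In the growth hormone axis, which sets these sex differences, 6 of 11 genes fell, and 3 with the covariate. Prlr, the prolactin receptor, stood at 549, 601 and 735 CPM in controls and 150.5, 229 and 292 CPM in tumour-bearing livers (-1.48 ± 0.22, edgeR adjusted p = 2.31e-05). The growth hormone receptor Ghr (-0.81 ± 0.19), its transducer Stat5b (-0.53 ± 0.17) and the feedback inhibitor Socs2 (-1.09 ± 0.31) were called too, as were Lifr (-1.28 ± 0.18) and Stat5a (-0.77 ± 0.24). Major urinary protein genes are near-identical copies of each other, and their counts are uncertain. Stat5b (tumour-bearing replicate 3 or 5 or control replicate 5) and Stat5a (control replicate 5) lost the call when that library was left out.

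Zonal genes fell on both sides of the lobule. Of 13 pericentral genes 8 were called down (median -0.78), and 5 with scaling by total library size or the covariate. Oat, ornithine aminotransferase, stood at 262, 407 and 539 CPM in controls and 116, 148 and 176 CPM in tumour-bearing livers (-1.45 ± 0.24). Lgr5, the R-spondin receptor, was at -1.22 ± 0.22, and Glul, glutamine synthetase, was not called (-0.48 ± 0.26, edgeR adjusted p = 0.176). Of 15 urea cycle and periportal genes 11 fell and 1 rose (median -0.73). Those that fell were 7 without tumour-bearing replicate 3 and 6 with scaling by total library size or the covariate. Cps1, the entry enzyme of the urea cycle, stood at 7112, 7625 and 12652 CPM in controls and 1853, 3586 and 4571 CPM in tumour-bearing livers (-1.28 ± 0.23, edgeR adjusted p = 0.000217). Ass1, another enzyme of the cycle, was at -1.0 ± 0.20, and Arg1, the last enzyme of the cycle, was not called (-0.60 ± 0.29, edgeR adjusted p = 0.128). Hsd17b13, a protein of lipid droplets, rose (0.60 ± 0.18).

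Lipid genes rose on the side of synthesis and storage. Of 21 such genes 10 were called up and 1 down (median 0.77). Without tumour-bearing replicate 6 the calls were again 10 and 1 and the median was 0.45. Cidea, which fuses lipid droplets in brown fat and fatty liver, had no count in any control and 0.836, 3.37 and 9.56 CPM in tumour-bearing livers, at least 173-fold higher against a floor of 3 counts over the control group. Its relative Cidec stood at 20.1, 27.8 and 65.7 CPM in tumour-bearing livers and 1.88, 2.44 and 3.67 CPM in controls (3.65 ± 0.38, edgeR adjusted p = 1.55e-07). Pparg, the nuclear receptor of fat storage (1.49 ± 0.26), Cd36, a fatty acid importer (1.67 ± 0.19), and Elovl6, an elongase (1.34 ± 0.22), rose. Srebf1, the lipogenic factor (-0.16 ± 0.23), and Fasn, the fatty acid synthase (0.78 ± 0.34, edgeR adjusted p = 0.084), were not called, and Mlxipl, the carbohydrate response factor ChREBP, fell (-0.65 ± 0.19). Of 19 cholesterol synthesis genes 5 fell (26.3%, against 11.5% of all genes), with a median of -0.10. These were Hmgcs1, Idi1, Cyp51, Msmo1 and Sc5d (-0.87 to -0.59). Scaled by total library size, however, 0 fell, 1 rose and the median was 0.19. With the covariate 0 fell, and without tumour-bearing replicate 3, 5 or 6 or control replicate 3 or 4, 1 to 3 fell. Of 20 genes of fatty acid oxidation and ketogenesis 10 fell and 1 rose, or 4 and 3 when scaled by total library size. Without tumour-bearing replicate 3, 6 fell, and with the covariate 1. Those that fell included Ehhadh (-0.91 ± 0.21) of the peroxisome and Cpt2 (-0.80 ± 0.18) of the mitochondrion. Cpt1a, the entry step, was not called (0.31 ± 0.20), and Fgf21, a fasting hormone, rose (1.77 ± 0.49). Hmgcs1 (any 1 of 9 libraries), Idi1 (control replicate 3), Cyp51 (control replicate 3), Msmo1 (any 1 of 4 libraries) and Sc5d (any 1 of 4 libraries) lost the call when that library was left out.

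Respiratory chain genes fell in 14 of 23 (median -0.47), in 5 with scaling by total library size and in 6 with the covariate. Mitochondrial-encoded transcripts took 5.45 ± 1.14% of the counts in tumour-bearing and 7.57 ± 1.06% in control libraries (mean ± SD, n = 6, exact permutation test, p = 0.0152). Among them mt-Nd2, a subunit of complex I, stood at 8799.7, 10594 and 14299 CPM in controls and 3411, 5986 and 7724 CPM in tumour-bearing livers (-1.0 ± 0.21). Of the nuclear genes Ndufs1 (-0.58 ± 0.13) and Sdha (-0.53 ± 0.15) were called while Cox4i1 (0.07 ± 0.17) was not. Glycolysis genes rose in 5 of 21 (23.8%, against 16.9% of all genes). Scaled by total library size 15 rose, a scaling under which 5783 of all 17216 genes were called up. Glycolysis genes called up were 3 without tumour-bearing replicate 3 or 6 or control replicate 2 or 4, and 9 without control replicate 5. Hk2, the hexokinase of growing cells, stood at 2.99, 3.73 and 9.32 CPM in tumour-bearing livers and 0.775, 2.21 and 2.86 CPM in controls (1.31 ± 0.30). Slc16a3, a lactate exporter, was at 1.69 ± 0.38, Pfkfb3, Pfkp and Gapdh were at 0.96 ± 0.26, 0.62 ± 0.22 and 0.53 ± 0.20, and Ldha was not called (-0.01 ± 0.15). Of 18 genes of the endoplasmic reticulum and the integrated stress response 4 rose and 4 fell (22.2% each, against 16.9% and 11.5% of all genes). The 10 not called included the chaperone Dnajb9 (-0.46 ± 0.32) and the pseudokinase Trib3 (0.44 ± 0.32). Scaled by total library size 7 rose and 3 fell, by limma voom 2 and 5, and without tumour-bearing replicate 3 or control replicate 1, 2 rose. The chaperones Hspa5 (-1.29 ± 0.30), Hsp90b1 (-0.97 ± 0.17), Pdia4 (-0.84 ± 0.20) and Creld2 (-1.34 ± 0.45) fell. Asns (1.26 ± 0.42), Psat1 (1.05 ± 0.37) and Phgdh (1.64 ± 0.41), enzymes of asparagine and serine synthesis, and Chac1, a glutathione-degrading enzyme (1.58 ± 0.36), rose. In the glutathione and NRF2 list 10 of 22 rose. Gstm3, a glutathione transferase, stood at 209, 343 and 1037 CPM in tumour-bearing livers and 33, 44.3 and 88.9 CPM in controls (2.96 ± 0.45, edgeR adjusted p = 2.97e-05). Gstp1 (1.55 ± 0.25), Slc7a11, the cystine importer (1.69 ± 0.28), and Nqo1, a quinone reductase (0.57 ± 0.19), were called, whereas Gclc (-0.37 ± 0.19) and Gclm (-0.39 ± 0.16), which make glutathione, and Hmox1 (0.24 ± 0.17) were not. Pfkp (any 1 of 7 libraries), Gapdh (any 1 of 8 libraries), Creld2 (any 1 of 5 libraries), Asns (any 1 of 4 libraries), Psat1 (any 1 of 6 libraries) and Nqo1 (tumour-bearing replicate 2) lost the call when that library was left out.

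Markers of other tissues were examined as well. Of 14 kidney tubule genes 6 passed the filter, with a summed level of 3.78 to 17.6 CPM in tumour-bearing and 1.35 to 2.75 CPM in control libraries. In controls 5 of the 6 lay below the level of the filter, so that they may have passed it only through groups where they were higher, and no share is read from them. Those called up were Tmem27 (3.53 ± 0.51), Pax8 (2.39 ± 0.47), Lrp2 (2.18 ± 0.53) and Cdh16, which stood at 0.088, 1.44 and 3.04 CPM in tumour-bearing livers and 0.0436, 0.146 and 0.855 CPM in controls (2.62 ± 0.71, edgeR adjusted p = 0.00747). Umod, Aqp2, Slc12a1 and Slc34a1, defining genes of the nephron, were below the filter. Of 7 adipocyte markers Fabp4 (1.58 ± 0.28) and Lpl (1.14 ± 0.17) passed and rose, and Adipoq, Plin1, Lep, Retn and Cfd were below it. Of 16 exocrine pancreas and gut genes 4 passed (8.73 to 44.8 CPM in tumour-bearing and 30.6 to 50.7 CPM in control libraries), and none was called by edgeR, at an unadjusted p under 0.05, by DESeq2 or by limma voom. Mesothelial and muscle markers, summed to 127 to 380.0 CPM in tumour-bearing and 12.8 to 464 CPM in control libraries, were high in some libraries of both groups, and 1 of 10, Upk3b, rose (1.19 ± 0.42), or 0 without tumour-bearing replicate 1 or 3 or control replicate 1, 2 or 6. None of 7 erythroid genes was called by edgeR, with 1 up and 2 down at an unadjusted p under 0.05, 0 by DESeq2, 3 down by limma voom and 1 up with scaling by total library size, on both log2 TPM scales and with the covariate. Immediate early genes, which respond to handling of tissue as well as to signals, rose in 4 of 16 (25%) and fell in 1 (6.25%). Over all genes 16.9% rose and 11.5% fell. Ier3 (1.85 ± 0.40), Klf6 (1.53 ± 0.19), Fosl2 (1.07 ± 0.27) and Jund (0.76 ± 0.20) rose and Ier2 (-0.61 ± 0.23) fell, with Fos (-0.19 ± 0.54) and Egr1 (-0.90 ± 0.47) not called. Upk3b (any 1 of 5 libraries) and Ier2 (any 1 of 8 libraries) lost the call when that library was left out.

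The 6 tumour-bearing livers differed among themselves, as the plot of list medians by library shows. Duct structural genes lay 2.17, 1.75 and 2.30 above the control mean in replicates 3, 5 and 6 and 0.83 to 1.09 above it in replicates 1, 2 and 4, against a control range of -0.35 to 0.23. Mitosis genes, structural matrix genes and YAP target genes were likewise highest in replicates 3, 5 and 6. YAP target genes lay 0.11 above the control mean in replicate 1 and 0.11 in replicate 2, close to the highest control (0.11). DNA replication genes had another order, with replicates 1 (1.39) and 3 (1.32) highest. Interferon-stimulated genes were lowest in replicate 6 (0.60) and highest in replicate 3 (1.61). Lipogenesis genes were highest in replicate 6 (1.58) and lowest in replicate 5 (0.19), within the control range of -0.18 to 0.23. Female-biased genes lay -3.03 to -1.41 from the control mean in all 6, lowest in replicate 6, and pericentral genes fell least in the same library (-0.25). Per gene, the SD of log2 CPM was larger in tumour-bearing livers for 57.6% of genes, with medians of 0.449 against 0.342 among genes called up and 0.309 against 0.303 among those called down.

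**Figure D4:**
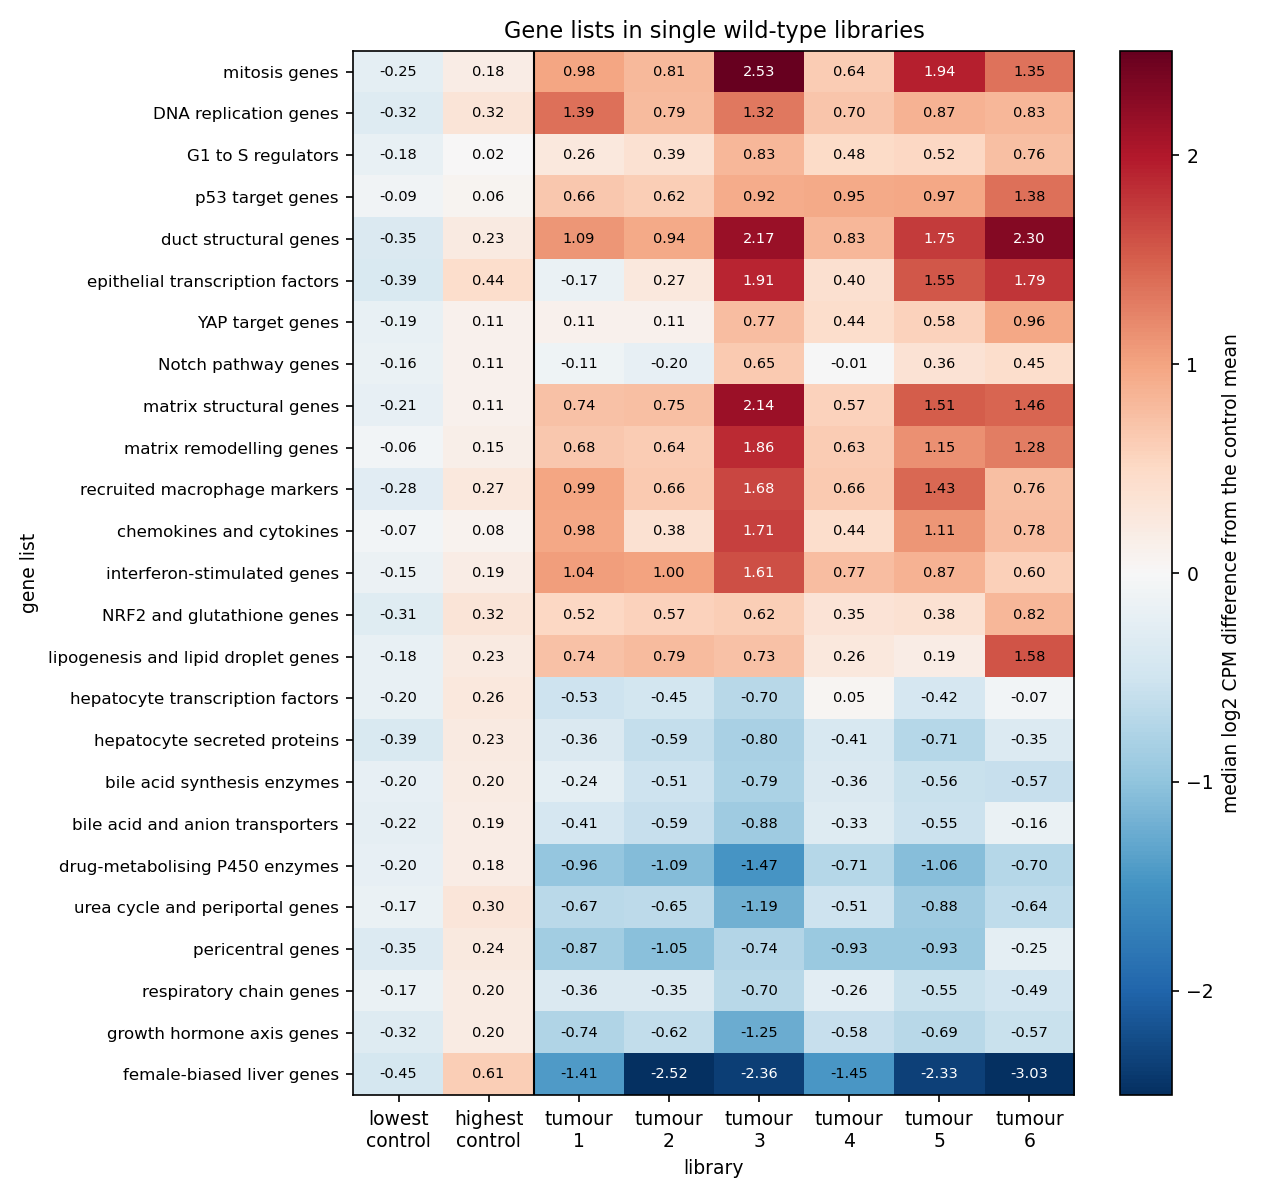
Rows are gene lists and columns are the lowest and highest control library and the 6 tumour-bearing libraries; each cell gives the median over the list of log2 CPM minus the control mean, red above and blue below. Replicates 3, 5 and 6 are the reddest for duct and matrix lists, and replicate 6 is nearest to the controls for pericentral genes.

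Whether the tumour effect differed from that in Mdr2-/- mice was tested as a difference of the 2 effects, which share no library. It was called for 4355 genes (25.3%). Of all 17216 genes tested, 3074 were called up and 2921 down in Mdr2-/- livers. Of the 2915 genes up in wild type, 928 were also called up in Mdr2-/- livers (31.8%) and 243 were called down there (8.34%). The 928 made up 30.2% of the genes up in Mdr2-/- livers. Of the 1976 genes down in wild type, 483 were called down in Mdr2-/- livers (24.4%) and 235 were called up there (11.9%). The 483 made up 16.5% of the genes down in Mdr2-/- livers. Replication genes were called for the difference in 23 of 29, each with the higher effect in wild type (Mdr2-/- median -0.32). The same held for recruited macrophage markers in 13 of 17, also each higher in wild type (Mdr2-/- median -0.04). NRF2 and glutathione genes were called in 14 of 22, each higher in wild type (Mdr2-/- median -0.57). Female-biased genes were called in 7 of 13, each lower in wild type (Mdr2-/- median 0.03). By contrast the difference was called for 1 of 22 secreted proteins (Mdr2-/- median -0.69), 1 of 15 bile acid synthesis enzymes (-0.15) and 1 of 20 genes of fatty acid oxidation (-0.38), shares below the 25.3% of all genes. For single genes, Cyp2c40 changed by -4.42 ± 0.33 in wild type and 0.06 ± 0.29 in Mdr2-/- livers (difference -4.47 ± 0.43, edgeR adjusted p = 2.75e-07). Mdr2-/- controls held Cyp2c40 at 13.1 ± 2.58 CPM (mean ± SD, n = 6), against 607 ± 193 CPM in wild-type controls. E2f1 changed by 1.87 ± 0.15 and -0.41 ± 0.14 (difference 2.28 ± 0.20, edgeR adjusted p = 6.74e-08). Spp1 (3.17 ± 0.51 and 4.31 ± 0.54, difference -1.14 ± 0.67, edgeR adjusted p = 0.204) and Gpc3 (3.36 ± 0.45 and 3.14 ± 0.44, difference 0.22 ± 0.60, edgeR adjusted p = 0.812) rose in both genotypes without a call for the difference. A difference without a call does not show that the effects are alike.

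**Figure D5:**
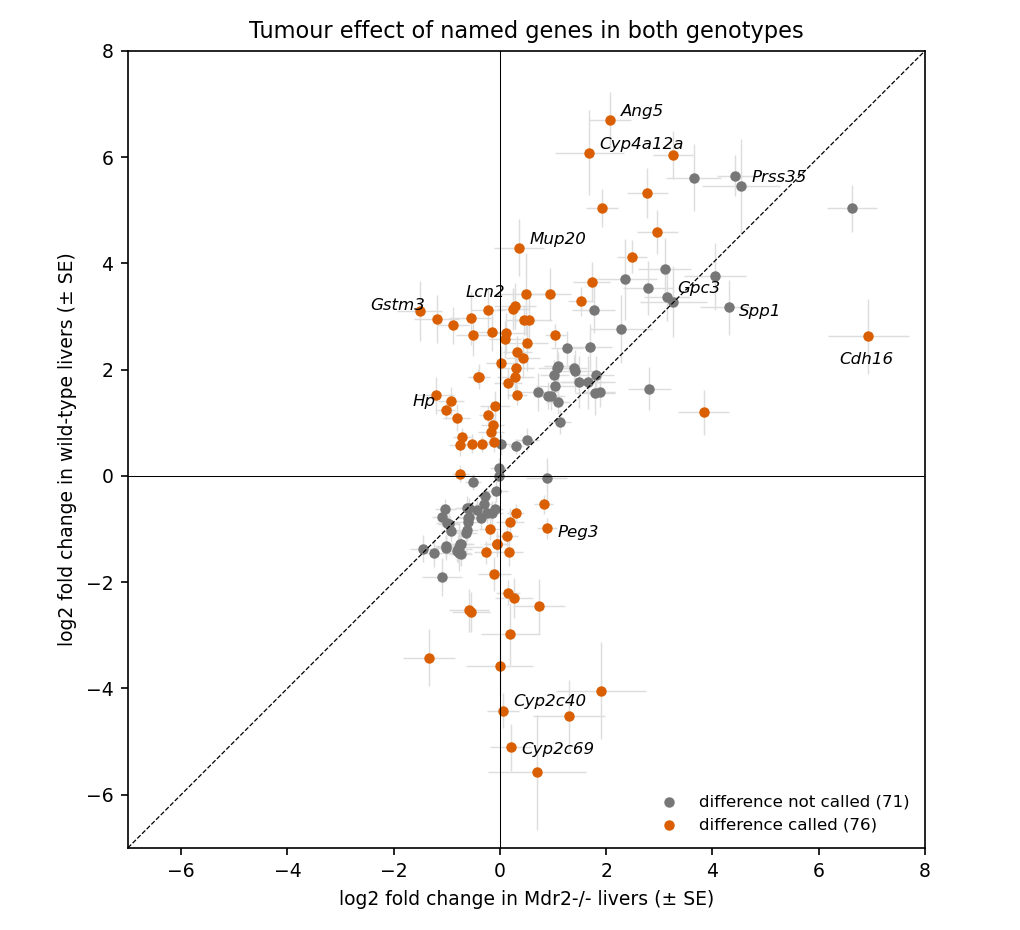
Points are 147 genes named by rule, with the log2 fold change in Mdr2-/- livers on the x axis and in wild-type livers on the y axis, bars giving the standard error and the dashed line equal effects; orange points were called for the difference (76). Among the 76 orange points 50 lie above the dashed line and 38 have opposite signs in the 2 genotypes, and Cdh16 lies far to the right, with the larger effect in Mdr2-/- livers.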

How the data were processed

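Whole liver tissue gave total RNA, from which ribosomal RNA was removed by a kit named for bacteria before paired-end sequencing, per the labels' protocols. The authors deposited a table of raw counts and a table of TPM values, the latter scaled by gene length to the same sum in all libraries. The submitters' processing notes name the build mm39 and DESeq2. Aligner, counter and use of strand: not given in the sources used here. Reads of overlapping or antisense genes therefore cannot be told apart.

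Libraries were grouped by treatment label. Genes without a symbol (174 of 49315) took 0.0111 to 0.0178% of the total, and 17216 genes passed filterByExpr with a minimum count of 10. The test was edgeR 4.0.16 in R 4.3.3 on the counts (TMM factors, robust glmQLFit and glmQLFTest, 2-sided, 1 mean for each of the 4 groups of the series), and the spread was shared over all 24 libraries. DESeq2 1.42.0, limma 3.58.1 on counts (voom) and on log2(TPM + 1) or log2(TPM + 0.1), other scalings, filters, a covariate and the omission of each library were run as alternatives. Composition measures were compared by 2-sided exact permutation tests (Python 3.11.15, scipy 1.17.1, numpy 2.4.6, pandas 2.3.3). The fit was tested on simulated counts. All 30 pairs of replicates in the wild-type groups differed beyond sampling noise. The labels speak of individual tissues but do not tie each library to a separate animal, so the p-values reflect only how these samples vary.

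The 54 gene lists and the rule for named genes were chosen with earlier results of these data known. The rule took the genes of the delivered construct and Abcb4, the 10 largest rises and falls with at least 5 CPM and no overlap, the largest gains and losses of CPM, and leading called members of each list. Other examples, the male-biased list and some of the promoters shown were chosen after values were seen. Some members of the lists are not reported here by name, but the counts include them. Promoters are RefSeq sequences of GRCm38.p6, matched by symbol, and no coordinate of the count table was used.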

Additional observations from a re-analysis of the deposited data

Results flagged for a closer look

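In each wild-type group of 6 libraries the highest and the lowest CPM of every gene named above were compared with the other 5 values. A library was set apart where its gap to the nearest other value, over the whole range, exceeded Dixon's critical value of 0.625. Of 610 groups tested 62 held such a library. The critical value gives about 1 in 20 by chance for normally distributed values, but CPM was used here without a log. Genes are also not independent of each other, so an excess over chance was not tested. Of these, 20 were tumour-bearing replicate 6, 12 control replicate 6 and 10 tumour-bearing replicate 3.

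Tumour-bearing replicate 6 stood above the others for Abcc3 at 661 CPM (others 208 to 309), Abcc4 at 19.5 CPM (others 7.96 to 12.2) and C3 at 12629.6 CPM (others 5114 to 7307). This was also so for Cidec at 65.7 CPM (others 20.1 to 35.2), Cpt1a at 521 CPM (others 269.8 to 327) and Cyp1a2 at 433 CPM (others 121 to 235). It likewise stood apart for Cyp4a12a at 349 CPM (others 106 to 166), Fasn at 2023.1 CPM (others 416 to 756) and Fga at 3226 CPM (others 1571 to 2184). A like gap was seen for Flt4 at 76.9 CPM (others 38.6 to 47.4), Fn1 at 3934 CPM (others 1144 to 1613) and Gapdh at 1309.6 CPM (others 560.0 to 698). The same held for Glul at 716 CPM (others 256 to 361), Gpc3 at 18.8 CPM (others 9.35 to 12.1) and Gstm3 at 1037 CPM (others 209 to 410.3). This was also so for Hmox1 at 56.1 CPM (others 29.5 to 38.9), Jund at 72.8 CPM (others 28.2 to 43) and Notch4 at 6.38 CPM (others 3.51 to 4.52). It likewise stood apart for Sesn3 at 139 CPM (others 71.8 to 87.8) and Stat5a at 13.6 CPM (others 6.63 to 8.44). Tumour-bearing replicate 3 stood above the others for Cd34 at 18.6 CPM (others 4.94 to 8.96), Cdk1 at 10.1 CPM (others 3.23 to 5.55) and Igha at 3.06 CPM (others 0.172 to 1.21). A like gap was seen for Ighg2b at 3.43 CPM (others 0.38 to 1.5), Irf7 at 28.8 CPM (others 14 to 18.9) and Phgdh at 6.42 CPM (others 0.909 to 2.63). The same held for Sctr at 1.15 CPM (others 0.088 to 0.483), Timp1 at 10.9 CPM (others 1.69 to 4.75) and Trem2 at 4.01 CPM (others 1.1 to 2.0). Tumour-bearing replicate 3 stood below the others for Igf1 at 461 CPM (others 705 to 810.2). Tumour-bearing replicate 1 stood above the others for A1bg at 537 CPM (others 102 to 257) and Tff3 at 0.748 CPM (others 0.0417 to 0.275). Tumour-bearing replicate 2 stood above the others for Ang5 at 71.5 CPM (others 34.2 to 47.9). Tumour-bearing replicate 5 stood above the others for Mmp7 at 2.67 CPM (others 0.264 to 0.759).

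Control replicate 6 stood above the others for Ccne1 at 2.82 CPM (others 0.567 to 1.15), Cebpa at 395 CPM (others 267 to 294) and Ppargc1a at 49.2 CPM (others 21.2 to 30.3). This was also so for Rictor at 92.2 CPM (others 51.1 to 57.3), Trib3 at 12.8 CPM (others 2.57 to 5.77) and Wwtr1 at 59.1 CPM (others 29.7 to 39.4). Control replicate 6 stood below the others for Afp at 11.2 CPM (others 14 to 15), Cyp2c69 at 205 CPM (others 632 to 829.8) and Hmox1 at 23.1 CPM (others 31.2 to 35.5). It likewise stood apart for Nt5e at 75.8 CPM (others 129.6 to 142), Serpina3k at 8372 CPM (others 15912 to 20068) and Slc5a1 at 1.18 CPM (others 2.01 to 2.47). Control replicate 4 stood above the others for Cdkn2a at 0.213 CPM (others 0 to 0), Fos at 8.98 CPM (others 1.57 to 3.18) and Ier2 at 43.5 CPM (others 17.1 to 25.1). A like gap was seen for Jag1 at 14.3 CPM (others 10.4 to 11.6), Scd1 at 9450.4 CPM (others 4340.3 to 6019) and Tagln at 1.62 CPM (others 0.959 to 1.21). Control replicate 4 stood below the others for Tead4 at 0.213 CPM (others 0.383 to 0.454). Control replicate 1 stood above the others for Cdh16 at 0.855 CPM (others 0.0436 to 0.215), Dnajb9 at 323 CPM (others 79.4 to 168) and Phlda3 at 2.44 CPM (others 1.12 to 1.59). The same held for Spink1 at 0.794 CPM (others 0 to 0.219). Control replicate 1 stood below the others for Notch4 at 1.65 CPM (others 2.72 to 2.93). Control replicate 2 stood above the others for Cyp17a1 at 42.4 CPM (others 3.0 to 12.8) and Mup7 at 27.3 CPM (others 2.13 to 8.91). Control replicate 2 stood below the others for Tff3 at 0 CPM (others 0.0426 to 0.0611). Control replicate 5 stood above the others for Yap1 at 78.4 CPM (others 48.6 to 59).

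The tumour effect in wild-type livers minus that in Mdr2-/- livers, on the log2 scale, was called by edgeR at the same threshold for 120 of the 301 genes named. Among duct, signalling, oncofetal and immediate early genes and markers of other tissues the effect was higher in wild type for Elf3 (3.14), Btc (2.26), Pdgfa (2.08), Slc5a1 (2.00), Ajuba (1.93), Sox4 (1.77), Pdgfb (1.73) and Wfdc2 (1.65). Further genes were Inhbb (1.59), Ier3 (1.56), Fosl2 (1.33), Jund (1.29), Klf6 (1.21), Tgfb1 (1.20), Heyl (0.99) and Akt2 (0.48). It was lower in wild type for the kidney tubule genes Cdh16 (-4.31) and Lrp2 (-3.21) and for Upk3b (-2.64) of the mesothelial and muscle list. The effect was also lower there for Afp (-4.30), Peg3 (-1.87), Erbb4 (-1.77), Cd24a (-1.43) and Slc12a2 (-1.36). So it was for Nt5e (-1.23), Mob1b (-0.99), Lats1 (-0.65) and Smad4 (-0.46). Among cell cycle and p53 genes the effect was higher in wild type for Uhrf1 (3.71), Mcm6 (3.62), Mcm5 (3.0), Ttk (2.90), Cdkn1a (2.57), Eda2r (2.48), Gins2 (2.47) and E2f1 (2.28). Further genes were Orc1 (1.93), Cdk1 (1.71), Phlda3 (1.6), Ccnd1 (1.42) and Ccne1 (0.99). It was lower in wild type for E2f8 (-1.27). Among matrix, stellate, immune, endothelial and adipocyte genes the effect was higher in wild type for Mmp12 (3.81), Ccl7 (3.66), Ccl2 (3.50), Mmp13 (3.06), Ccl20 (2.92), Col1a1 (2.87), Lif (2.56) and Timp1 (2.47). This group also held Ighg2b (2.40), Siglech (2.32), Itgax (2.10), Tnc (1.95), Ccr2 (1.44), Ifit1 (1.43), Trem2 (1.40) and Lpl (1.37). Further genes were Col3a1 (1.35), Irf7 (1.34), Folr2 (1.33), Col4a1 (1.24), Vsig4 (1.21), Lyve1 (1.10), Flt4 (0.93) and Cd5l (0.76). To these come Stab1 (0.54). Among hepatocyte and metabolic genes the effect was higher in wild type for Cyp4a12a (4.40), Gstm3 (4.14), Mup20 (3.93), Lcn2 (2.91), Saa2 (2.56), Hp (2.26), Gstp1 (2.01) and Saa1 (1.95). This group also held Pparg (1.92), Cidec (1.92), C6 (1.91), Hpx (1.45), Hk2 (1.40), Cd36 (1.33), Elovl6 (1.33) and Hmox1 (1.17). Further genes were Hsd17b13 (1.12), Gapdh (1.07), Hnf4a (0.99) and Nqo1 (0.84). It was lower in wild type for Cyp3a44 (-6.46), Cyp3a16 (-6.28), Cyp2c69 (-5.31), Mup7 (-4.75), Cyp2c40 (-4.47), Hsd3b5 (-4.08), Sult3a1 (-3.19) and Cyp17a1 (-2.43). So it was for Cyp7b1 (-2.35), A1bg (-2.08), Hao2 (-2.04), Cyp4a14 (-1.95), Psat1 (-1.75), Slco1a1 (-1.56), Lgr5 (-1.55) and Socs2 (-1.42). This group also held Lifr (-1.22), Slco1b2 (-1.19), Serpina3m (-1.18), Arg1 (-1.13), Idi1 (-1.06), Cyp51 (-1.04), Cyp2e1 (-0.89) and Ghr (-0.83). Further genes were mt-Nd2 (-0.81) and Nr5a2 (-0.51). Among genes outside the lists the effect was higher in wild type for Ang5 (4.62), Ang4 (3.12), Sdcbp2 (2.77), Fam83a (2.55), Ptgfr (1.63) and Apoe (0.79). It was lower in wild type for Serpina3k (-1.74).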

How the results depend on the processing

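No paired analysis was possible because the labels give no replicate numbers that the groups share. No alternative turned the direction of a called gene named above. Of 54 lists, 38 had a count of calls that moved by over 1.5 times under at least 1 alternative. These were 24 lists each with scaling by total library size and with the covariate, 22 on each log2 TPM scale and 18 without tumour-bearing replicate 3, against at most 6 without any other single library. Scaled by total library size, the larger count changed from down to up for PI3K and AKT pathway genes, FoxO target genes, acute phase proteins, cholesterol synthesis genes and male-biased genes, as given above. Of 232 called genes named above, 152 kept call and direction under every alternative, and 49 lost the call when some single library was left out, 40 of them without tumour-bearing replicate 3. The title number range as a covariate ended 54 of these calls, log2(TPM + 1) 49 and log2(TPM + 0.1) 31. Genes called up and down, in all and by at least 2-fold, were 5783, 603, 2429 and 156 with scaling by total library size and 4528, 482, 784 and 82 on log2(TPM + 1). On log2(TPM + 0.1) they were 5069 up, 498 down and 126 down by at least 2-fold, and with a minimum count of 50, which tests fewer genes, 257 fell by at least 2-fold. All other totals stayed within 1.5 times the main count when 1 library was left out, except genes called down, 1264 to 2122, lowest without tumour-bearing replicate 3. PI3K and AKT pathway genes called down (4) were 1 with total library size and with both TPM scales, 2 without a filter and with only the 12 wild-type libraries, 7 with voom and 2 to 7 on leaving out 1 library. Hepatocyte transcription factors called down (5) were 3 with total library size, without a filter, on log2(TPM + 0.1), with only the 12 wild-type libraries and with the covariate, 2 on log2(TPM + 1) and 3 to 7 on leaving out 1 library. Hepatocyte secreted proteins called down (13) were 5 on both TPM scales and 4 with the covariate, and bile acid synthesis enzymes (8) were 4 on log2(TPM + 1), 5 on log2(TPM + 0.1) and 3 with the covariate. Kupffer cell markers called up (3) were 1 without a filter and 1 to 3 on leaving out 1 library, YAP target genes called up (11) were 6 with the covariate, and lipogenesis genes called up (10) were 16 with total library size. The causes were not tested. The totals ran from 3485 genes called with the covariate to 5406 with DESeq2 among the settings that kept the TMM or a like scaling of all 17216 genes, with 5243 for voom. At the lowest depth of 20976459 counts, genes under 1 CPM rest on few counts, and differences in the markers listed as below the filter were not detectable at this depth.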

Other observations

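Besides Cidea, Rhbdl2, a membrane protease of the rhomboid family, had no count in any control and was at least 12.6-fold higher in tumour-bearing livers against a floor of 3 counts over the control group, and the pseudogene Cyp4a30-ps, next in name to the Cyp4a hydroxylases, was at least 28.6-fold higher. Both floors cover counting error only.

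Summed over genes, the group mean of the genes called up gained 53562 CPM and that of the genes called down dropped by 249911 CPM. The 10 largest gains made up 49.8% of the former sum and the 10 largest losses 41.5% of the latter. These sums refer to TMM-scaled CPM, which need not add up to the same total in the 2 groups.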
